A study of Rattus norvegicus with 4 samples.

Results

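The genes described here encode the lysosomal proton pump, the hydrolases it keeps active and the proteins of the lysosomal membrane and lumen. They form a named list of 38 rat genes, and an array probe belonged to a gene when its transcript accession matched that gene in RefSeq. Probes were matched for 37 of the 38, with 44 probes in all, out of 16581 genes and 21109 probes that could be named. Gla, which encodes alpha-galactosidase A, had no matched probe and has no value here. The cells were NR8383, a macrophage line started from rat lung lavage, grown as a mix of attached and floating cells according to the labels and used after 20 passages. Each culture analysed here had been given NM403, a carbon nanotube of the multi-walled kind, for 4 h at 0.8 cm2 of material per cm2 of culture, and total RNA was hybridised to 1-colour Agilent arrays. There were 4 biological replicates by the labels and 1 group. Control cultures without NM403 belong to the design but are not analysed here. No value below is therefore a response to NM403, and no test between groups was possible. The cultures share 1 cell line, so their spread is not a spread between animals.

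A lysosome is acidified by the vacuolar ATPase, in which the V1 sector on the cytosolic face burns ATP and drives a rotor in the membrane-bound V0 sector that carries protons inward. The acid is needed by the hydrolases, which break down glycans, lipids and proteins taken up by phagocytosis, and each of many inherited storage diseases follows from the loss of 1 of these proteins. Membrane glycoproteins line the organelle, and channels and carriers such as Mcoln1 and Npc1 move calcium and cholesterol out of it. Macrophages are rich in lysosomes and digest in them the particles they engulf.

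The arrays themselves set how finely these genes can be read. Between 45.9% and 50.8% of 58717 non-control spots per array were well above background, and 7 to 11 of 308 negative control spots were. Levels below are log2 signals of a gene's brightest probe, set against the 75th percentile of those probes that every array detected, as mean ± SD over 4 cultures (n = 4 for every level). A level describes 1 probe across arrays and ranks no gene against another. The number of arrays limits the precision, and in bulk RNA fewer cells of a type and less RNA per cell cannot be told apart. Of 14 macrophage markers 11 were detected on all 4 arrays. The others were Marco and Adgre1, which no array read well above background, and Mertk, which 1 array did. Detection on all arrays held for 1 of 8 measured epithelial, 1 of 6 fibroblast, 1 of 6 lymphocyte, 1 of 7 neutrophil and mast cell and 3 of 6 endothelial markers.

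Many lysosomal genes carry near their start a short palindromic element, named CLEAR, to which TFEB and its relatives of the MiT/TFE family bind. The RefSeq promoter windows of rat assembly GRCr8 (250 bases before to 50 bases after the annotated start) were searched for the motif TCACGTG on both strands, which overlaps the general E-box CACGTG. Windows were found for 29 of the 38 genes, all but Atp6v0d2, Atp6v0e2, Atp6v1b2, Atp6v1c1, Atp6v1h, Hexa, Ppt1, Asah1 and Psap, and 6 of these 29 (20.7%) held the motif. Over all 33469 windows in the table the share was 3.20%, and over the 7033 windows of genes detected on all 4 arrays it was 5.72%. No test was made of this difference, and a match is a run of letters, not a measured binding site. The 6 stretches are shown because they are what these members share in sequence. Each is written 5′ to 3′ on the gene's strand, with every match in capitals. Overlapping matches on the 2 strands are counted as 1 site.
Atp6v0d1, chr19:50357269-50357326, minus strand: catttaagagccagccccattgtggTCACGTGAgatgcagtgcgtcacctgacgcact
Atp6v0e1, chr10:17007115-17007144, minus strand: tcgcgcgccggTCACGTGAgcctctgttga
Lamp1, chr16:83075070-83075272, minus strand: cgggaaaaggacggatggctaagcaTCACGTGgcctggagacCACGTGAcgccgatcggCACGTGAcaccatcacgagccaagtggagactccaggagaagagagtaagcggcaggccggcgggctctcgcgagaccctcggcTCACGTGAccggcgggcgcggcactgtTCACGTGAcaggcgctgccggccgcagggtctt
Mcoln1, chr12:6358210-6358287, plus strand: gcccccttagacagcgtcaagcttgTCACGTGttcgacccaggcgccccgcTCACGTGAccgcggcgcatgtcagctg
Gaa, chr10:105028263-105028319, plus strand: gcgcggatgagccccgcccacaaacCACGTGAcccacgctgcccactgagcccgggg
Glb1, chr8:122963592-122963648, plus strand: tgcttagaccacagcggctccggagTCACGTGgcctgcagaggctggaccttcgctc

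The Lamp1 window held 5 sites and the Mcoln1 window 2, and the other 4 windows held 1 each. By role, the motif was in 2 of 6 V0 windows, 0 of 5 V1 windows, 2 of 6 windows of membrane proteins, 2 of 10 of hydrolases and 0 of 2 of lumenal proteins. The general E-box added Cd63, for 7 of 29 windows against 6.42% of all windows and 9.68% of those of genes detected on all 4 arrays. The related motif TCATGTG was in 5 of 29 windows (Tpp1, Cd63, Atp6v0c, Grn and Atp6v1a). It was in 3.56% of all windows and 2.26% of those of genes detected on all 4 arrays. Of 73 other lysosomal genes with a window, 14 (19.2%) held TCACGTG. These are genes of the pump, hydrolases, membrane and delivery route outside the 38, described further below.

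**Figure D1:**
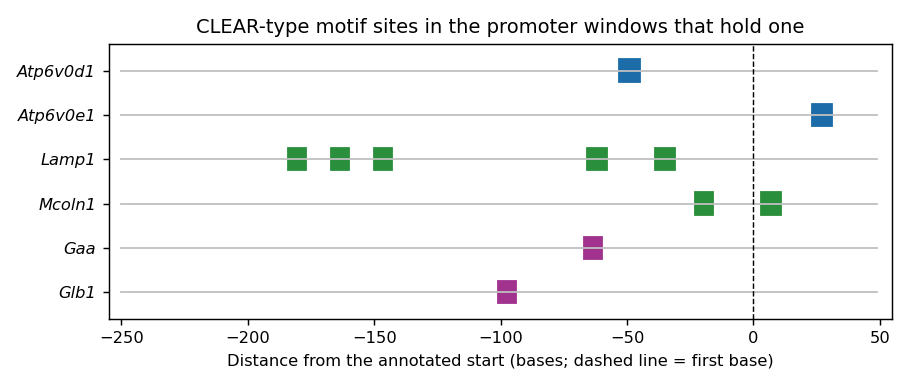
Sites of the CLEAR-type motif (blocks) in the promoter windows of the 6 members that hold one, with distance from the annotated start in bases on the horizontal axis, colours by role (blue V0, green membrane protein, purple hydrolase) and the first base of the transcript as a dashed line. Lamp1 shows 5 sites and Mcoln1 2, and 4 genes show 1 site each.

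Every measured member was detected. All 37 genes were well above background on all 4 arrays, where 47.9% of all named genes were. This held for 8 of 8 V0 genes, 8 of 8 V1 genes, 6 of 6 genes of membrane proteins, 12 of 12 measured hydrolase genes and 3 of 3 genes of lumenal proteins without enzyme activity. The list had been drawn up with such results known, so the count is a description. Mean levels ran from -4.86 for Atp6v0e2 to 6.01 for Lyz2. At the low end, 1% of detected probes lay below -6.01 on replicate 1 and below -5.49 on replicate 4, so Atp6v0e2 was read close to where probes stop being called.

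**Figure D2:**
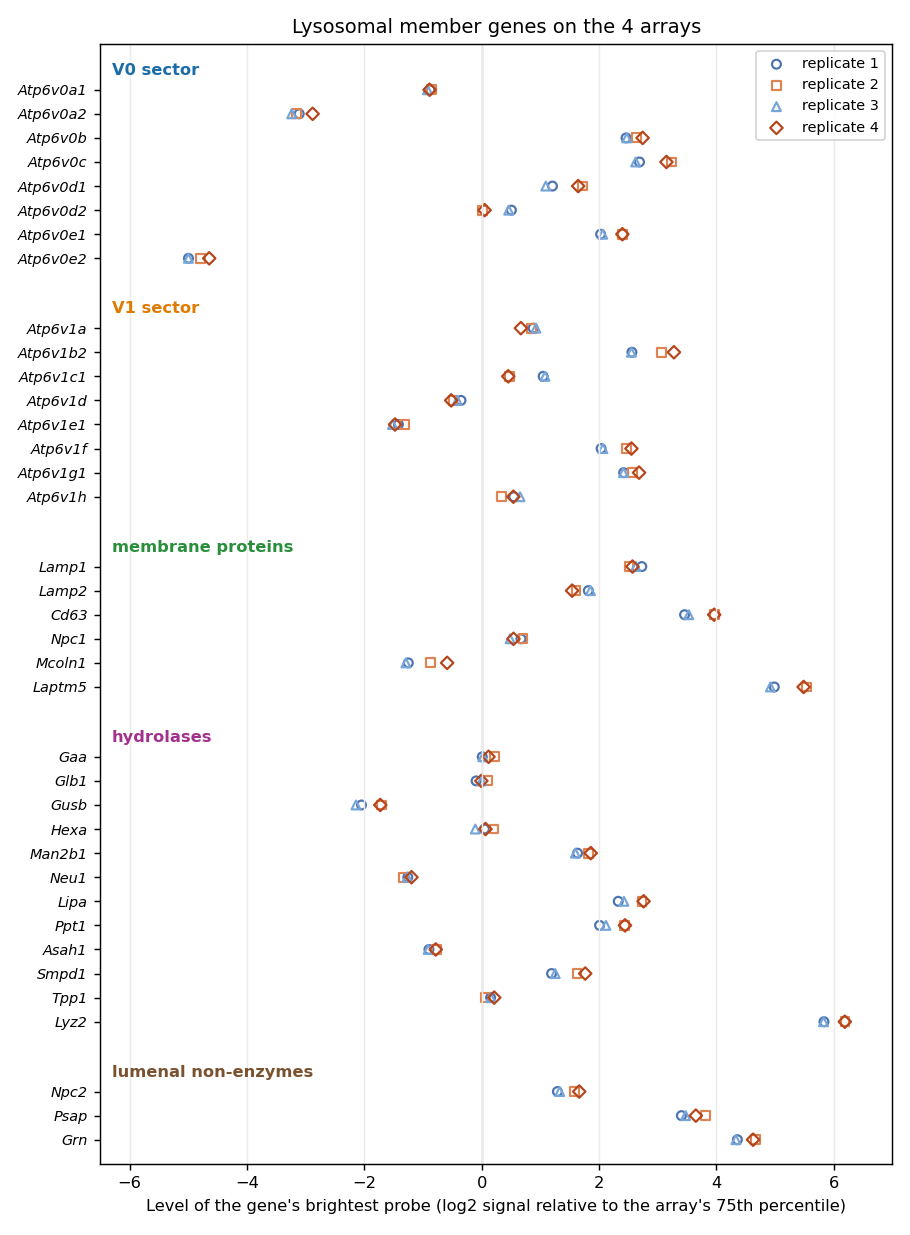
Level of each member on the 4 arrays, with genes by role down the vertical axis and the log2 signal of the brightest probe relative to the array's 75th percentile on the horizontal axis. Each symbol is 1 array, and the 4 symbols of a gene lie within 0.72 log2 units of each other, from Atp6v0e2 near -4.86 to Lyz2 near 6.01.

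How far the cultures differed in these genes depended on the scaling. With the scaling used here the median SD of the 37 members was 0.17 on the log2 scale, where that of all 7935 eligible genes (brightest probe detected on all 4 arrays) was 0.23 and that of the 3967 eligible genes above the median level was 0.22. The highest array exceeded the lowest by 1.28-fold for the median member and 1.40-fold for the median eligible gene. A range above 1.5-fold was found for 6 of 37 members (16.2%), against a background of 37.9% of eligible genes, or 30.7% of those above the median level. A range above 2-fold was found for 0 of 37 members, against 13.6%. The 6 members were Atp6v0c, Atp6v0d1, Atp6v1b2, Atp6v1c1, Mcoln1 and Laptm5. By role, the median SD was 0.19 for V0, 0.13 for V1, 0.21 for membrane proteins, 0.13 for hydrolases and 0.18 for lumenal proteins. These are medians over 3 to 12 genes and were not tested against each other. With the 75th percentile of all non-control probes in its place the median SD was 0.34 for the members and 0.35 for all eligible genes. There 25 members (67.6%) passed 1.5-fold, against 62.7% of eligible genes, and 5 passed 2-fold. With the median of all non-control probes 27 members (73.0%) passed 1.5-fold, against 68.9%, and 4 passed 2-fold. The smaller share of members above 1.5-fold was therefore not found with either of these scalings. With quantile normalization it was found, at 13.5% of members against 42.4% of eligible genes. It was also found with the normexp background correction (16.2% against 32.2%) and the mean over probes (13.5% against 37.4%). For the scalings on all non-control probes the share of eligible genes above 2-fold was not computed, so the counts of 5 and 4 members have no background.

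**Figure D3:**
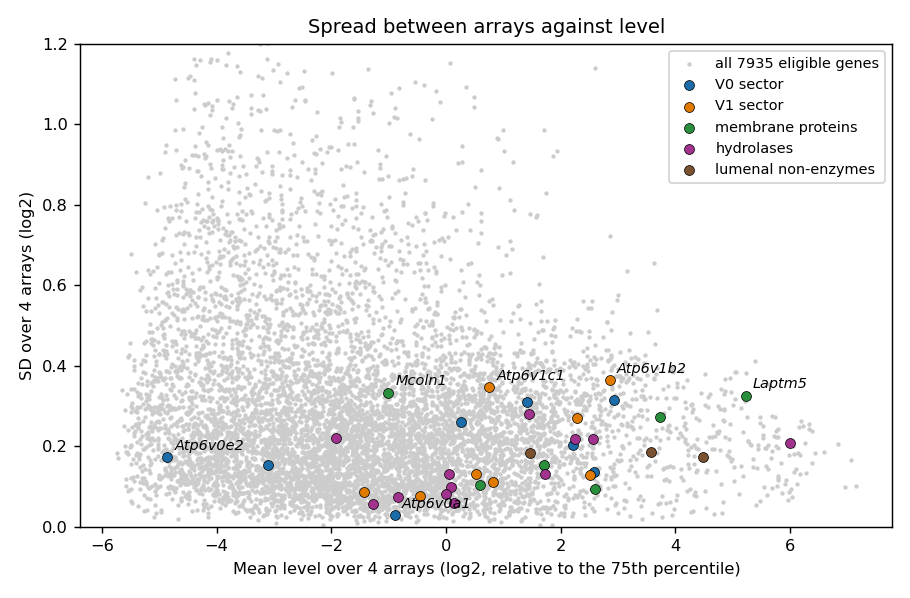
Spread over the 4 arrays (SD, log2, vertical axis) against mean level (log2, relative to the 75th percentile, horizontal axis) for all eligible genes in grey and the members coloured by role; the axis ends at 1.2, and some grey points lie above it. Members lie between an SD of 0.029 for Atp6v0a1 and 0.36 for Atp6v1b2. Most have an SD below the median of the eligible genes. Others lie above it, up to Atp6v1c1 and Atp6v1b2 at percentiles 72.6 and 74.6 of the eligible genes.

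Repeated spots showed the noise within an array. Over 1008 probes printed at least 3 times, spots of 1 probe on 1 array had a median SD of 0.0472. The SD between arrays was above this for 36 of 37 members (97.3%), all but Atp6v0a1, and for 97.0% of eligible genes. It was above the 90th percentile of these probe medians, 0.0768, for 32 members (86.5%) and 90.9% of eligible genes. Spot SDs on single arrays can be larger. For 30 members the brightest probe was printed 1 time, so their own spot noise is unknown. The brightest probes of Cd63, Laptm5, Man2b1, Lyz2 and Grn were each printed 10 times. Their spot SDs within an array ran from 0.0293 to 0.100, and their SDs between arrays from 0.13 to 0.33.

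The differences were not spread evenly over the arrays. The median member differed by 1.03-fold between replicates 1 and 3 and by 1.06-fold between replicates 2 and 4. In the remaining 4 pairs of arrays it differed by 1.16-fold to 1.24-fold. The largest difference of any member was 1.14-fold between replicates 1 and 3 and 1.21-fold between replicates 2 and 4. In the other pairs it was 1.49-fold to 1.65-fold. The same 2 pairs of arrays were the closest over all eligible genes, with medians of 1.05-fold and 1.07-fold against 1.28-fold to 1.30-fold. Nothing in the labels sets these pairs apart, and they are not groups of the study. The share of spots well above background followed the same pairs, at 50.8% and 49.6% on replicates 1 and 3 and 47.5% and 45.9% on replicates 2 and 4. Its part in the differences was not tested.

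On most members replicates 2 and 4 read highest. They held the 2 highest readings for 23 of 37 members (62.2%), replicates 1 and 3 for 7, and another pair for 7. The background was 47.3% of eligible genes for replicates 2 and 4, and 61.1% of eligible genes above the median level, so the members' share lay near that of other well-expressed genes. With other scalings, background corrections and probe rules the count ran from 21 to 35, the highest with the 75th percentile of all non-control probes, where 69.9% of eligible genes had both arrays above both others. In each of the 7 settings 17 members had both replicates 2 and 4 above both replicates 1 and 3, and 1 member, Atp6v1c1, had the reverse. Among these settings, the filter asking for detection on at least 1 array could change no member. The count over every setting was not made for all eligible genes, so it has no background. In single settings 41.3% to 69.9% of eligible genes had both replicates 2 and 4 above both others. The median deviation of all eligible genes lay between -0.05 and 0.05 on every array, between -0.25 and 0.23 with the 75th percentile of all non-control probes, and between -0.28 and 0.31 with their median. Directions given below are therefore those of the first scaling unless another is named.

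**Figure D4:**
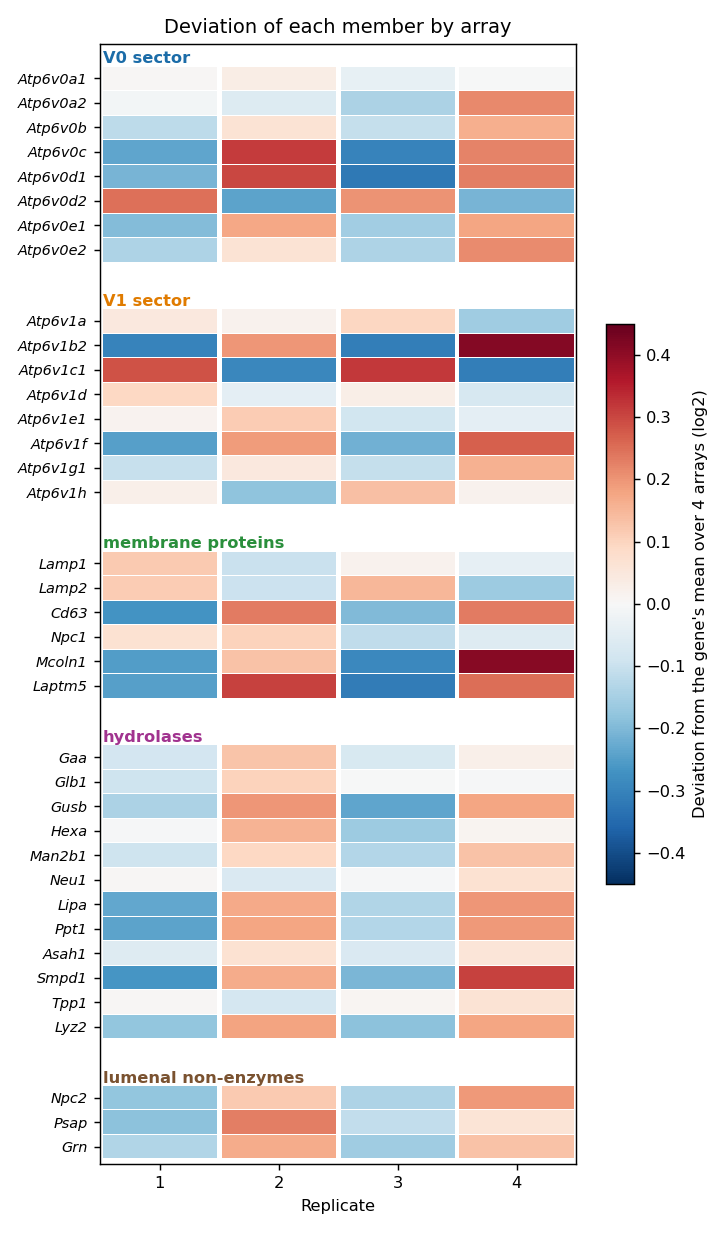
Deviation of each member from its own mean on each of the 4 arrays (log2, red above and blue below), with genes by role down the vertical axis and replicates across. Atp6v0d2 and Atp6v1c1 are red on replicates 1 and 3, whereas Atp6v0c, Atp6v0d1, Atp6v1b2, Mcoln1 and Laptm5 are red on replicates 2 and 4; with arrays scaled on their median, Atp6v0d2 loses this order.

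The V0 sector holds the proton path. Atp6v0c encodes the proteolipid that makes up most of the rotor ring. Its brightest probe read 2.69, 3.24, 2.62 and 3.15 on replicates 1 to 4, in that order here and below. The level was 2.93 ± 0.31 with a range of 1.53-fold, and replicates 2 and 4 were above 1 and 3. The second Atp6v0c probe read 1.49, 2.10, 1.60 and 2.18, in the same arrangement and with a 1.61-fold range. Atp6v0b, another proteolipid of the ring, had a level of 2.58 ± 0.14.

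Atp6v0d1 and Atp6v0d2 encode alternative forms of the d subunit, which couples the V1 shaft to the ring. Atp6v0d1, the widely expressed form, read 1.21, 1.71, 1.09 and 1.64 (1.41 ± 0.31). Atp6v0d2, the form known from osteoclasts and macrophages, read 0.51, 0.01, 0.46 and 0.05 (0.26 ± 0.26), so the 2 forms ran in opposite directions over the arrays. From replicate 1 to replicate 2 the Atp6v0d1 probe differed by 0.51 and the Atp6v0d2 probe by -0.49. A shift of a whole array moves both by the same amount, so the gap between these 2 differences does not depend on a scaling that subtracts 1 constant per array. With scaling on the median of all probes the readings of Atp6v0d2 on replicates 1 and 3 were no longer both above those on 2 and 4.

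The a subunit forms the half-channels through which protons pass and sets where the pump goes. Atp6v0a1 had the smallest SD of the members, -0.89 ± 0.029, with a 1.05-fold range. Atp6v0a2, a form known from the Golgi and endosomes, read -3.11, -3.16, -3.24 and -2.88 (-3.10 ± 0.15), with replicate 4 highest. The second Atp6v0a2 probe was detected on 1 array alone, so it was left out. Atp6v0e1, a small membrane subunit, read 2.03, 2.39, 2.06 and 2.40 (2.22 ± 0.20), and its brain-enriched relative Atp6v0e2 read -5.00, -4.79, -5.00 and -4.65 (-4.86 ± 0.17). Both e forms read higher on replicates 2 and 4, by up to 1.29-fold for Atp6v0e1 and 1.28-fold for Atp6v0e2. In this sector 5 of 8 genes had replicates 2 and 4 highest and 1 had replicates 1 and 3. The background was 47.3% and 34.5% of eligible genes, and 61.1% and 26.2% of those above the median level.

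The V1 sector splits ATP, and the order of the arrays differed among its genes in this scaling. Atp6v1b2 encodes the B subunit that with the catalytic A subunit forms the ATPase head. It read 2.56, 3.06, 2.55 and 3.28 (2.86 ± 0.36), the largest SD of the members, with replicates 2 and 4 above 1 and 3. Atp6v1a, for the catalytic A subunit itself, read 0.88, 0.85, 0.92 and 0.67 (0.83 ± 0.11), and replicate 4 was lowest. Its SD was 0.039 without replicate 4. The second Atp6v1a probe, at -2.84 ± 0.10, was lowest on replicate 2. Of the 2 genes of the ATPase head, that of the B subunit had the larger SD.

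Atp6v1c1 encodes the C subunit, which holds the stator together and is released when the pump comes apart. It read 1.05, 0.47, 1.08 and 0.45 (0.76 ± 0.35, a 1.54-fold range), with replicates 1 and 3 above 2 and 4, opposite to Atp6v1b2. Atp6v1h, a regulatory subunit also involved in assembly, read 0.55, 0.34, 0.65 and 0.54 (0.52 ± 0.13). The second Atp6v1h probe read 0.02, -0.25, -0.05 and -0.46, so replicate 4 was the lowest on one probe and near the middle on the other.

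Atp6v1f, a subunit of the central shaft, read 2.03, 2.47, 2.06 and 2.55 (2.28 ± 0.27). Atp6v1g1, a stator subunit, read 2.42, 2.57, 2.42 and 2.68 (2.52 ± 0.13). Both had replicates 2 and 4 above 1 and 3. The remaining stalk genes, Atp6v1d at -0.45 ± 0.075 and Atp6v1e1 at -1.43 ± 0.087, had ranges of 1.12-fold and 1.15-fold. Of the 8 V1 genes 3 had replicates 2 and 4 highest and 4 had replicates 1 and 3. In the V0 sector those counts were 5 and 1. The background was 47.3% and 34.5% of eligible genes, and 61.1% and 26.2% of those above the median level. The difference between the sectors was not tested. With the 75th percentile of all non-control probes both sectors had 7 genes with replicates 2 and 4 above 1 and 3. Each had 1 gene with the reverse, and Atp6v1a, Atp6v1d and Atp6v1h had turned. There 69.9% of eligible genes had replicates 2 and 4 above both others and 19.0% the reverse.

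Genes of membrane proteins had the highest median SD of the roles in this scaling. Mcoln1 encodes the calcium channel TRPML1 of the lysosomal membrane. It read -1.25, -0.87, -1.29 and -0.59 (SD 0.33, n = 4, a 1.63-fold range), with replicate 4 highest and replicate 3 lowest. Laptm5, a transmembrane protein of blood cells, read 4.99, 5.54, 4.92 and 5.49 (5.23 ± 0.33), and the tetraspanin gene Cd63 read 3.46, 3.96, 3.53 and 3.96 (3.73 ± 0.27). Both had replicates 2 and 4 above 1 and 3 in all 7 settings.

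Lamp1 and Lamp2 encode the main glycoproteins of the lysosomal membrane. Lamp1 read 2.73, 2.51, 2.63 and 2.57 (2.61 ± 0.09), highest on replicate 1, with a range of 1.16-fold. The brightest Lamp2 probe read 1.82, 1.61, 1.85 and 1.54 (1.70 ± 0.15), whereas the second one read -0.81, -0.70, -0.88 and -0.52. The 2 Lamp2 probes therefore ran in opposite directions over the arrays. For the brightest probes of Lamp1 and Lamp2 replicates 1 and 3 were the highest, and with the 75th percentile of all non-control probes replicates 2 and 4 were. Lamp2 is known to be spliced into forms with different tails, and which form each probe reads was not tested. Npc1, the membrane protein of cholesterol export, read 0.67, 0.70, 0.48 and 0.54 (0.60 ± 0.10), with replicates 1 and 2 above 3 and 4.

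**Figure D5:**
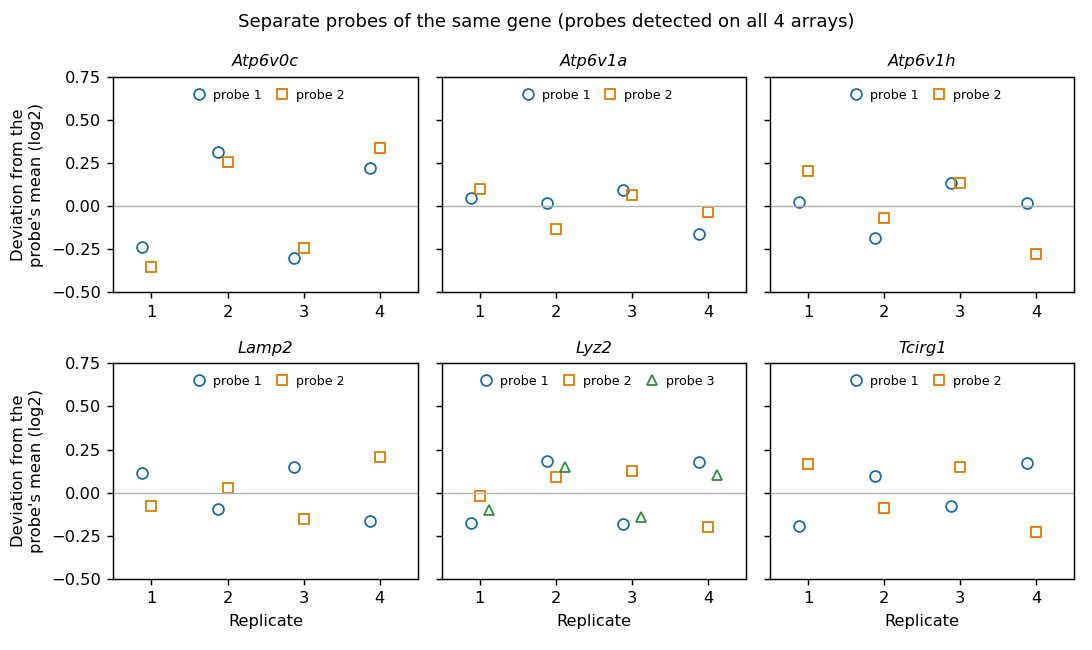
Deviation of each probe from its own mean (log2, vertical axis) on replicates 1 to 4 for 6 genes, showing probes detected on all arrays, with probes numbered from the brightest. The Atp6v0c probes move alike, the Lamp2 and Tcirg1 probes run in opposite directions, and the second Lyz2 probe parts from the other 2 on replicates 3 and 4.

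None of the 12 measured hydrolase genes passed a 1.5-fold range in this scaling, against 37.9% of eligible genes and 30.7% of those above the median level. Replicates 2 and 4 were highest for 9 of 12, against 47.3% of eligible genes and 61.1% of those above the median level. Replicates 1 and 3 were highest for 0, against 34.5% of eligible genes and 26.2% of those above the median level. With the 75th percentile of all non-control probes most hydrolase genes passed 1.5-fold, as did 62.7% of eligible genes. These were Smpd1, Gusb, Lipa, Ppt1, Lyz2, Hexa, Man2b1 and Gaa, whereas Glb1, Neu1, Asah1 and Tpp1 did not pass. Smpd1, the acid sphingomyelinase, read 1.19, 1.62, 1.25 and 1.76 (1.46 ± 0.28), a 1.49-fold range and the widest of the role. Its neighbour in ceramide metabolism Asah1, the acid ceramidase that degrades the product of Smpd1, was at -0.84 ± 0.074, a smaller SD.

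Among the lipid and thioester hydrolases, Lipa, the acid lipase that frees cholesterol from its esters, read 2.33, 2.73, 2.42 and 2.76 (2.56 ± 0.22). Ppt1, which removes palmitate from proteins, read 2.01, 2.43, 2.12 and 2.44 (2.25 ± 0.22). In both genes replicate 1 was lowest, and replicates 2 and 4 read close together above 1 and 3. Among glycan hydrolases, Gusb, the beta-glucuronidase, read -2.05, -1.71, -2.14 and -1.73 (-1.91 ± 0.22), a 1.35-fold range with replicates 2 and 4 above 1 and 3. The other glycan hydrolases had smaller SDs. These were Gaa (acid alpha-glucosidase) at 0.098, Glb1 (beta-galactosidase) at 0.081, Hexa (the alpha subunit of beta-hexosaminidase) at 0.13, Man2b1 (alpha-mannosidase) at 0.13 and Neu1 (sialidase) at 0.056. Tpp1, a tripeptidyl peptidase, had a level of 0.15 ± 0.060. For Glb1, printed 2 times, the spots of replicate 4 differed with an SD of 0.299, above its SD between arrays.

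Lyz2 encodes the macrophage lysozyme, which cleaves bacterial cell walls. Its brightest probe read 5.83, 6.19, 5.83 and 6.19 (6.01 ± 0.21), in 2 narrow steps. The third probe read 4.13, 4.38, 4.09 and 4.33, in the same arrangement. The second probe read 5.42, 5.53, 5.57 and 5.24, with replicate 4 lowest. Spot SDs of the second probe were 0.0500 to 0.109 on the 4 arrays, and those of the brightest were 0.0392 to 0.0556. Lysozyme genes have close relatives, and whether these probes tell them apart was not tested.

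The genes of lumenal proteins without an enzyme activity of their own had the same 2 arrays highest. Npc2, which hands cholesterol to Npc1, read 1.29, 1.58, 1.33 and 1.66 (1.47 ± 0.18). Psap, the precursor of the saposins that present lipids to hydrolases, read 3.40, 3.82, 3.47 and 3.65 (3.59 ± 0.19). Grn, the precursor of granulins, read 4.36, 4.66, 4.33 and 4.62 (4.49 ± 0.17). In all 3 genes replicates 2 and 4 were above 1 and 3. Under quantile normalization that held for Npc2 but not for Psap and Grn, and the median SD of the 3 genes was 0.0684 against 0.18.

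The wider lysosomal lists gave a context for the 38. They held 89 other genes, 77 of them measured. Of these, 63 (81.8%) were detected on all 4 arrays, where 47.9% of all named genes were, 6 on some and 8 on none. By list, detection on all arrays held for 7 of 15 measured pump and pump-assembly genes, 21 of 25 hydrolases, 20 of 22 membrane proteins and 15 of 15 genes of delivery to lysosomes. The median SD of the 63 was 0.20 in the scaling used here, and 18 of them (28.6%) passed 1.5-fold. The background was 37.9% of eligible genes and 30.7% of those above the median level, so the share lay near that of the latter.

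Pump genes not well above background on any array were Atp6v1c2, Atp6v1e2, Atp6v1g2 and Atp6v1g3, which are tissue-restricted forms of V1 subunits, and Dmxl2, a pump assembly factor. The list forms of the same subunits, Atp6v1c1, Atp6v1e1 and Atp6v1g1, were detected on all arrays. Atp6v1b1, the kidney form of the B subunit, was detected on 1 array, and is named after its values were seen. Among the rest, the sulfatase Galns, the dendritic cell protein Lamp3 and the transporter Abcb9 were detected on none. Tcirg1, the a3 form of V0 that is known from osteoclasts and macrophages, was detected on all arrays and its brightest probe read 2.80, 3.09, 2.91 and 3.16 (2.99 ± 0.16). Its second probe read 0.89, 0.64, 0.87 and 0.50, so the 2 probes ran in opposite directions.

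Of the 63 other genes 3 (4.76%) had ranges above 2-fold, against 13.6% of eligible genes and 6.83% of those above the median level. Atp6ap2, the accessory subunit also called the prorenin receptor, read 0.23, -0.34, -0.08 and -1.04 (-0.31 ± 0.54), with replicate 4 lowest. Its second probe had replicates 2 and 4 low too and a 1.64-fold range. Slc38a9, the lysosomal amino acid sensor, read -4.58, -5.76, -3.94 and -5.00, a 3.51-fold range with replicate 2 lowest and replicate 3 highest. On replicate 2, 1% of detected probes lay below -5.88, so this reading was close to where probes stop being called. The second Slc38a9 probe is not given here. Slc15a4, a peptide and histidine transporter, read 0.06, 0.30, -0.19 and -0.93, with replicate 4 lowest.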

How the data were processed

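Total RNA of 4 NM403-exposed NR8383 cultures was measured on 1-colour (Cy3) arrays. Per the submitters' processing notes the software was Agilent Feature Extraction 11.0.1.1. The deposited processed intensity of a spot had its background subtracted and spatial trend removed within the array, per the file headers, and was not normalized between arrays. Median intensities of spots and local background and the software's flags were read too. Control spots and outlier spots were left out, spots of a probe were averaged as log2, and a probe was detected when more than 50% of its spots were well above background. Each array was scaled on the 75th percentile of the 34.2% of probes detected on all arrays. Accessions were matched to RefSeq (GRCr8): 21109 of 45598 probes (46.3%) had 1 symbol, 0 several and 24489 none. A gene took its brightest probe.

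With 1 group no test between groups was run. Values given on every array are those of members with a range above 1.5-fold and of up to 4 others per role with the largest SD. Second probes and the every-array values of Lyz2 were chosen after values were seen. Of the wider lists, genes detected on no array or with a range above 2-fold are named, and Tcirg1 always. Members and lists were chosen with earlier results of these data known. Scaling, spread and background correction were tested on simulated data. Alternatives were other scalings, quantile normalization, normexp with an offset of 50 on the median spot signal, other probe and detection rules and leaving out each replicate. Computed with Python 3.11.15, pandas 2.3.3 and scipy 1.17.1.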

Additional observations from a re-analysis of the deposited data

How the results depend on the processing

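No paired analysis was possible because the labels give 1 group. All 37 measured members stayed detected on all arrays under 2 other detection rules and without each replicate (37 to 37), and 36 did when every named probe had to be detected. Protein identities were not run, since no protein sequences were used here.

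Scaling moved the spreads most. With the 75th percentile of all non-control probes the median SD was 0.344 for all members, 0.363 for V0, 0.210 for V1, 0.374 for membrane proteins, 0.335 for hydrolases and 0.390 for lumenal proteins. There 25 members (67.6%) passed 1.5-fold against 62.7% of eligible genes, 5 passed 2-fold, 35 had replicates 2 and 4 highest and 2 had both replicates 1 and 3 above the others, where 7 had been, and the median log2 differences were 0.558 (replicates 1 and 2), 0.597 (1 and 4), 0.608 (2 and 3) and 0.644 (3 and 4). With the array median the median SDs were 0.325, 0.330, 0.250, 0.376, 0.332 and 0.371 in the same order, 27 members (73.0%) passed 1.5-fold against 68.9% of eligible genes, 4 passed 2-fold, 1 had both replicates 1 and 3 above the others, and the differences were 0.542 (1 and 2), 0.165 (1 and 3), 0.721 (2 and 3), 0.243 (2 and 4) and 0.524 (3 and 4). With quantile normalization the lumenal median SD was 0.0684 and the difference between replicates 2 and 3 was 0.198. Raising the threshold to 2-fold left 0 members in the scaling of the report. For the other scalings the share of eligible genes above 2-fold was not computed. Under normexp and with the mean over probes, the median SDs and the median differences between arrays stayed within 1.5 times. So did the counts above 1.5-fold and with replicates 2 and 4 highest, and the motif count with the other 2 motifs. The mean over probes could change only members with several probes. A looser filter on dim genes could change no member, since the brightest probe of each was already detected on all arrays.

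Leaving out each replicate in turn gave 3 to 6 members above 1.5-fold, with 3 without replicate 2 and 3 without replicate 3. These counts were 8.11% to 16.2% of members, against 29.9% to 33.5% of eligible genes over the arrays kept. The median SD then ran from 0.160 to 0.174 for all members, 0.161 to 0.205 for V0, 0.125 to 0.147 for V1, 0.183 to 0.222 for membrane proteins, 0.113 to 0.151 for hydrolases and 0.162 to 0.196 for lumenal proteins. The cause of these movements was not tested. Probes near background, such as that of Atp6v0e2, are limited by signal.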
